A study of Mus musculus with 64 samples.

Results

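The comparison described here is that of whole colon from specific-pathogen-free (SPF) mice given vancomycin with whole colon from SPF mice given PBS, both collected at ZT23, and it is described across all genes. ZT counts the hours since lights on, so ZT23 lies at the end of the dark, active phase of a mouse. The members were chosen by their labels alone: 4 vancomycin libraries and 4 PBS libraries, 8 of the 64 in the series. The other libraries come from SPF colon at ZT5, ZT11 and ZT17 and from germ-free (GF) colon at the same 4 times, with 4 libraries per group. By its title the series asks which effects of an antibiotic on gut immune genes depend on the microbiota.

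All mice were Swiss Webster, an outbred stock, wild type by label, 8 to 12 weeks old, fed standard chow and kept on 12 h of light and 12 h of dark. The vancomycin group received 2.5 mg of the drug in 100 µl of PBS by intraperitoneal injection, 2 times a day over 3 days and a last time on day 4. The PBS group received 100 µl of PBS on the same schedule. Injection and handling were therefore common to both groups, and the drug was given into the body cavity rather than by mouth. RNA was poly(A)-selected from 1000 ng of total RNA of frozen tissue that holds epithelium, immune cells, muscle, nerves and adhering serosa together. In such tissue fewer cells of a type and less RNA per cell cannot be told apart. Whether every library comes from its own animal is not stated in the labels, and a p-value here is read against the variation among libraries, which may be technical.

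Vancomycin is a glycopeptide that blocks cell wall synthesis of Gram-positive bacteria. In the gut, signals from bacteria and from immune cells set the level of interferon-driven genes: type I and III interferons act through a complex with STAT2 and IRF9 on a promoter element called ISRE, and interferon-gamma acts on an element called GAS. Their targets include antiviral effectors such as the IFIT and OAS proteins, the guanylate-binding and immunity-related GTPases that attack vacuoles holding pathogens, the chemokines CXCL9, CXCL10 and CXCL11 that draw in CXCR3-bearing T cells, and the machinery that loads MHC class I. The surface epithelium of the colon also makes serum amyloid A and absorbs sodium through the channel ENaC under control of aldosterone.

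Promoter sequences of 3 interferon-linked genes are shown because this group held many of the positive differences of the comparison. They are the 250 bases before the RefSeq start of the gene, plus strand, build GRCm38.p6, written 5′ to 3′. Capitals mark matches to ISRE (GAAA, any 2 bases, GAAA) or GAS (TTC, any 3 bases, GAA), searched on both strands. Gbp2 (chr3:142620413-142620662) and Ifit3b (chr19:34607707-34607956) carry ISRE matches only, and in Irgm2 (chr11:58214727-58214976) a GAS match stands next to an ISRE match.
Gbp2: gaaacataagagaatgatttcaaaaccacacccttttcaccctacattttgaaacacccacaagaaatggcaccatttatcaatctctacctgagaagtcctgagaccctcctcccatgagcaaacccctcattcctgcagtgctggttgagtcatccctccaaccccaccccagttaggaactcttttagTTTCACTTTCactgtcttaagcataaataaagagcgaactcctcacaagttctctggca
Irgm2: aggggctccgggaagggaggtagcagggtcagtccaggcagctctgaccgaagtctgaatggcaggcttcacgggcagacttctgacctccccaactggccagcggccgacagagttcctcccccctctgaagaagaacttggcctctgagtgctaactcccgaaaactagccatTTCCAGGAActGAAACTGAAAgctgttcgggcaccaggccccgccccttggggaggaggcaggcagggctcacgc
Ifit3b: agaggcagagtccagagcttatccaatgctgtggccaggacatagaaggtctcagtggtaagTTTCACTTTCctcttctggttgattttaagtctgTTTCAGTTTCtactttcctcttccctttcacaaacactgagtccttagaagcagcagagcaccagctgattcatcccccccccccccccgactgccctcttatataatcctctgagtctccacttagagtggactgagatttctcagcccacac
An ISRE match stood in the window of 9 of the 10 interferon-induced GTPases that had one and of 14 of 31 other interferon-stimulated genes (45.2%), against 3.36% of the 12116 tested genes with a window. GAS matches stood in 60% of the GTPase windows, 16.1% of the interferon-stimulated windows and 7.26% of the windows of all tested genes. A match describes the letters of the window and says nothing of binding.

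The 8 libraries held between 11177399 and 13514005 estimated counts each, and TMM scaling factors lay between 0.9632 and 1.0228. The tissue label fitted its markers: 12 colon identity genes such as Slc26a3 and Muc2 averaged 8.82 to 9.24 log2 CPM (counts scaled to a common library total) in the vancomycin libraries and 8.99 to 9.41 in the PBS libraries. Small intestine genes, 6 of them tested, averaged 2.17 to 2.77 log2 CPM in the vancomycin libraries and 1.61 to 3.95 in the PBS libraries. The 4 Y-linked genes were at like levels in all 8 libraries. Libraries of both groups differed in how much of other tissues they held. PBS replicate 2 had liver transcripts, with Alb (albumin) at 169 CPM against 0.507 to 6.25 CPM in the vancomycin libraries and 0.963 to 2.37 CPM in the other PBS libraries. Adipose markers stood high in PBS replicates 2 and 3, and T cell, B cell and plasma cell markers stood highest in PBS replicate 4. These libraries were kept, and values without them are given beside results that they move most.

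No gene passed the test. With edgeR's quasi-likelihood test on 16938 genes, 0 genes (0%) had an adjusted p under 0.05, 1243 genes (7.34%) had an unadjusted p under 0.05, and of those 506 were higher (2.99%) and 737 lower (4.35%) in the vancomycin libraries. limma-voom also called 0 genes, with 1144 at an unadjusted p under 0.05. DESeq2 on the same libraries called 42 of 16915 genes (0.248%), 13 higher (0.0769%) and 29 lower (0.171%), and in 36 of the 42 the 4 vancomycin values lay apart from the 4 PBS values. Over all tested genes, all 4 vancomycin values lay above all 4 PBS values in 357 genes (2.11%) and below them in 511 genes (3.02%), so the groups lay apart in 5.12% of genes. The median log2 fold change of all genes was -0.01. All fold changes below are log2, vancomycin over PBS, with their standard error (SE), and all levels are CPM.

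**Figure D1:**
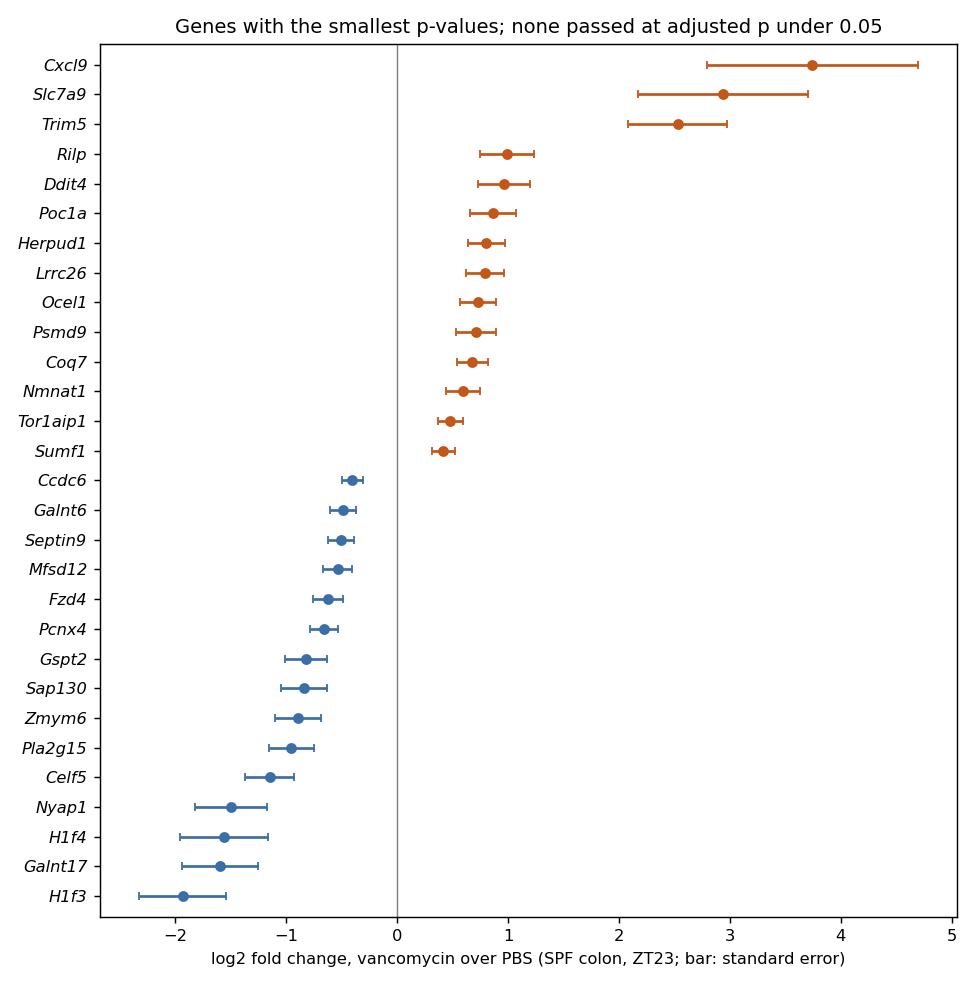
Log2 fold change, vancomycin over PBS, in SPF colon at ZT23 (x axis; points, bars are the standard error) for genes among those with the smallest p-values in each direction (y axis, gene names). The span runs from 3.74 for Cxcl9 at the top to -1.93 for H1f3 at the bottom, and most of the genes lie within 1 log2 unit of 0.

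Genes of the interferon response lay mostly on the positive side. Of 44 tested interferon-stimulated genes, 40 had a positive fold change, 13 were higher at an unadjusted p under 0.05 (29.5%, against 2.99% of all genes) and 0 were lower; their median was 0.51. Of 19 interferon-induced GTPases, 16 were positive, 8 were higher at that level and 0 were lower, with a median of 0.88. In 5 of the 44 and 3 of the 19 the vancomycin values lay wholly above the PBS values, a share that was 2.11% over all genes. None of these genes had an edgeR adjusted p under 0.05, the smallest being 0.296 and 0.386 in the 2 lists, and DESeq2 called none of them. The median of the GTPases was 0.48 without vancomycin replicate 4, and that of the interferon-stimulated genes was 0.33 without vancomycin replicate 1. As a mean log2 CPM over the list, both lists overlapped between the groups. The interferon-stimulated genes averaged 4.76 to 5.64 in the vancomycin libraries and 4.28 to 4.85 in the PBS libraries. The GTPases averaged 2.94 to 4.37 after vancomycin and 2.42 to 3.37 after PBS.

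Ifit3b, a paralog of the antiviral RNA-binding protein IFIT3, whose promoter is printed above, had 7.18, 6.16, 8.87 and 2.35 CPM in the vancomycin libraries (replicates 1 to 4), against 2.20, 1.82, 1.40 and 1.69 CPM in the PBS libraries. The groups did not overlap, but vancomycin replicate 4 lay close to the PBS range. Its fold change was 1.79 ± 0.50 (edgeR adjusted p = 0.296). Irf9, the DNA-binding subunit of the type I complex, averaged 72.8 ± 17.2 CPM after vancomycin and 48.2 ± 4.19 CPM after PBS (SD, n = 4 each), with no overlap (0.60 ± 0.24, edgeR adjusted p = 0.557). Ifit2 (1.09), Xaf1, a pro-apoptotic interferon target (0.75), and Ifit3b and Irf9 were 4 of the 5 list members whose groups did not overlap, and Trim30a, a TRIM-family regulator of inflammatory signalling, was the other (0.99). Classical antiviral markers of the same list overlapped between the groups: Isg15, a ubiquitin-like modifier, averaged 32.05 ± 15.9 CPM after vancomycin and 22.2 ± 10.4 CPM after PBS (0.53 ± 0.60). Mx1, a dynamin-like antiviral GTPase, averaged 8.47 ± 1.76 CPM after vancomycin and 11.6 ± 5.41 CPM after PBS (-0.45 ± 0.56), and Rsad2, which encodes viperin, was at -0.10 ± 0.40. The negative values of Mx1 and Rsad2 were smaller than their SE, and a difference between members of the list was not tested.

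Among the GTPases, Gbp2 had 59.5, 66.7, 31.4 and 225 CPM in the vancomycin libraries, against 26.2, 39.8, 40.0 and 40.1 CPM in the PBS libraries. Replicate 4 alone made most of the group's mean, and replicate 3 lay within the PBS range (1.39 ± 0.44, edgeR adjusted p = 0.386, and 0.52 without replicate 4). Irgm2, an immunity-related GTPase that governs its relatives, had 49.5, 35.8, 27.4 and 61.1 CPM after vancomycin, against 24.8, 24.8, 21.3 and 22.2 CPM after PBS, with no overlap (0.90 ± 0.33, edgeR adjusted p = 0.502). Irgm1, of the same kind, was at 0.67 ± 0.26 and also did not overlap, nor did Gbp6 (1.79 ± 0.78). Igtp (1.14) and Gbp3 (0.88) overlapped through vancomycin replicate 3, and Iigp1 (1.51, and 0.57 without vancomycin replicate 4) through replicates 2 and 3. In Gbp2 and Irgm2 replicate 3 was the lowest of the vancomycin libraries, and in Ifit3b it was the highest. GBP and IFIT genes have close paralogs, so the split of reads among them is uncertain.

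Chemokines of the CXCR3 axis had the largest fold changes of the chemokine list. Cxcl9, a ligand of CXCR3 induced by interferon-gamma, had 5.91, 6.16, 2.79 and 19.6 CPM in the vancomycin libraries, against 0.088, 0.693, 0.438 and 1.28 CPM in the PBS libraries. Every vancomycin library lay above every PBS library, with a fold change of 3.74 ± 0.95 (edgeR adjusted p = 0.257, DESeq2 adjusted p = 0.0166). Cxcl11, a second CXCR3 ligand, had 2.84, 0.616, 0.930 and 2.81 CPM after vancomycin, against 0, 0.173, 0 and 0.241 CPM after PBS, so that 2 PBS libraries had no counts and its fitted fold change (3.96) depends on the prior count. Cxcl10, the third ligand, overlapped through PBS replicate 4, which had 3.21 CPM (1.84 ± 0.89, and 3.44 without that library). Il7, an epithelial cytokine that sustains lymphocytes, averaged 10.1 ± 1.13 CPM after vancomycin and 7.13 ± 1.15 CPM after PBS with no overlap (0.50 ± 0.19, edgeR adjusted p = 0.506), and Cx3cl1, the chemokine fractalkine, had the one negative difference at an unadjusted p under 0.05 (-0.70). Of the 35 tested chemokines and cytokines, 4 were higher and 1 lower at that level, against 2.99% higher and 4.35% lower of all genes, and the median was 0.14, with values from -0.039 without PBS replicate 3 to 0.45 without PBS replicate 4.

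Antigen presentation by MHC class I was represented by 23 tested genes, of which 4 were higher and 0 lower at an unadjusted p under 0.05 (2.99% and 4.35% of all genes), with a median of 0.09 that was -0.0066 without PBS replicate 3 and 0.21 without PBS replicate 4. Tapbpl, which encodes the peptide editor TAPBPR, had 66.3, 60.2, 56.0 and 68.3 CPM in the vancomycin libraries, against 42.4, 49.6, 43.7 and 44.2 CPM in the PBS libraries, with no overlap (0.48 ± 0.13, edgeR adjusted p = 0.296). Psmb10, a catalytic subunit of the immunoproteasome, averaged 147 ± 16.6 CPM after vancomycin and 112 ± 11.7 CPM after PBS, again with no overlap (0.39 ± 0.13). Psme1 (0.32), a proteasome activator subunit, and B2m (0.32), the light chain of MHC class I, overlapped. Of 11 MHC class II genes 0 passed that level in either direction, and their median was 0.07, with values from -0.18 without PBS replicate 3 to 0.66 without PBS replicate 4.

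Trim5 had the smallest p-value of the comparison. The mouse Trim5, Trim12 and Trim30 genes form a cluster of close copies that encode antiviral ring-finger proteins. Trim5 had 2.84, 11.9, 11.1 and 1.45 CPM in the vancomycin libraries, against 1.06, 1.39, 1.14 and 1.12 CPM in the PBS libraries. Vancomycin replicates 2 and 3 stood far above all others, and replicate 4 was just above the highest PBS value (2.53 ± 0.45, edgeR adjusted p = 0.0899, DESeq2 adjusted p = 1.2e-04). Its adjusted p passed 0.05 when vancomycin replicate 1 or vancomycin replicate 4 was left out. Trim30d was likewise high in vancomycin replicates 2 and 3, with 4.49, 21.5, 14.3 and 2.35 CPM after vancomycin, against 3.87, 2.94, 6.05 and 2.57 CPM after PBS, and its groups overlapped (1.47 ± 0.57). How reads divide among these copies is uncertain.

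Immune cell markers did not separate the groups. Of 41 T and NK cell genes, 25 B cell and follicle genes and 33 macrophage and dendritic cell genes, 0 had an unadjusted p under 0.05 (7.34% of all genes). The medians were 0.02, 0.10 and 0.04. The T and NK markers summed to 351, 350, 102 and 334 CPM in the vancomycin libraries, against 104, 279, 73.3 and 756 CPM in the PBS libraries, and none was at 0 in all libraries. B cell and follicle markers summed to 477 to 1435 CPM after vancomycin and 414 to 1879 CPM after PBS, and macrophage and dendritic cell markers to 855 to 1307 CPM after vancomycin and 783 to 1570 CPM after PBS. T and NK markers were lowest of the vancomycin libraries in replicate 3, which also had the lowest Gbp2 and Cxcl9. Vancomycin replicate 4 had the most Gbp2 and Cxcl9, and its T and NK markers summed to 334 CPM. PBS replicate 4, with the highest marker sum of all 8 libraries, had the highest Cxcl9 of the PBS libraries and a Gbp2 level close to that of PBS replicates 2 and 3. The part of these cells in the interferon values was not tested. In a fit with the B cell and follicle score as a covariate, the medians of the interferon-stimulated genes and GTPases were 0.53 and 0.78. No fit took the T and NK score as a covariate. The medians of the immune cell lists rested on single PBS libraries. Without PBS replicate 4 they were 0.90 for T and NK genes, 0.75 for B cell and follicle genes and 0.39 for macrophage and dendritic cell genes. Without PBS replicate 3 the T and NK median was -0.30 and the B cell median -0.25, and without PBS replicate 1 the macrophage median was -0.09.

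**Figure D2:**
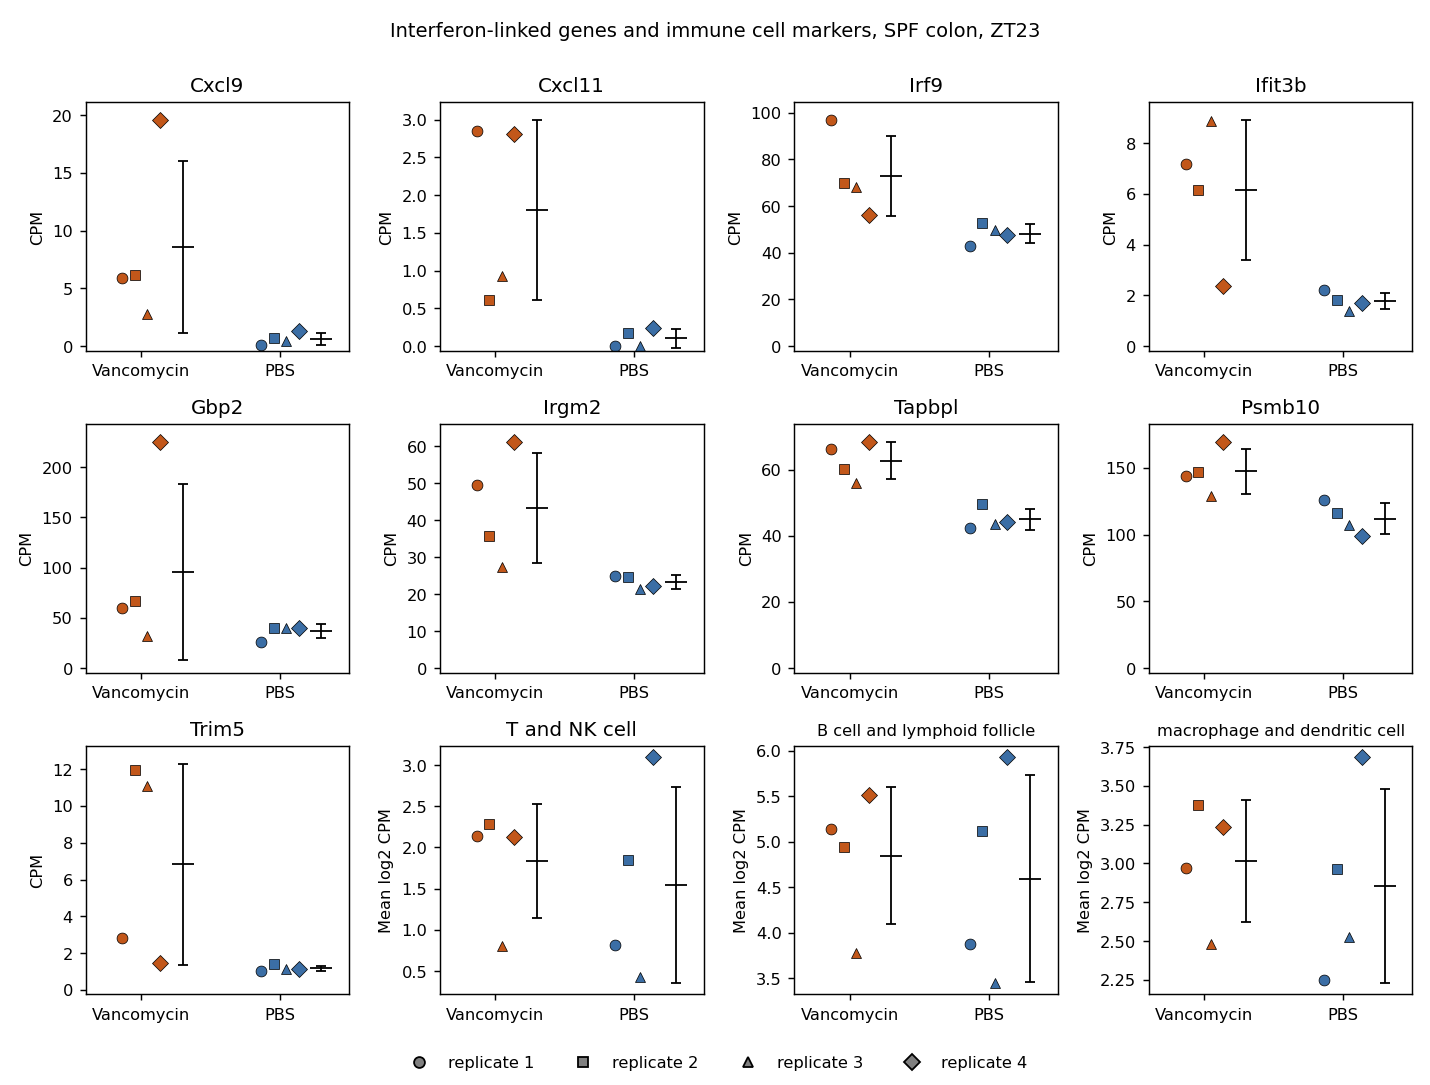
Levels in each library (y axes, CPM; for the 3 marker panels the mean log2 CPM of the list), vancomycin left and PBS right; marker shapes give the replicate number, and bars give mean and SD of 4 libraries. Cxcl9, Irf9, Ifit3b, Irgm2 and Tapbpl, which are single genes, do not overlap between the groups. The T and NK, B cell and macrophage marker scores, which are means over whole lists, do overlap. So do the scores of the interferon-stimulated genes and of the GTPases, which are not drawn.

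Epithelial defence genes were divided in direction: of 31 tested, 15 were positive and 16 negative, and the median was -0.02. At an unadjusted p under 0.05, 2 were higher and 0 lower (6.45%, close to the 7.34% of all genes). These 2 were Saa1 and Saa2, which encode serum amyloid A, a secreted retinol- and lipid-binding protein induced by adherent bacteria and by cytokines. Saa1 had 3412, 2671, 3142 and 1617 CPM in the vancomycin libraries, against 837, 1079, 1202 and 1113 CPM in the PBS libraries, so every vancomycin library lay above every PBS library (1.36 ± 0.39, edgeR adjusted p = 0.315). Saa2 averaged 139 ± 38.2 CPM after vancomycin and 57.6 ± 9.67 CPM after PBS, also without overlap (1.27 ± 0.44). The pair are near-identical copies, so their separate levels are uncertain. Reg3g, a C-type lectin that acts on Gram-positive bacteria, and its relative Reg3b were close to absent. Reg3g had 0.338 to 3.16 CPM after vancomycin and 0.264 to 1.21 CPM after PBS. Reg3b had 0 to 3.31 CPM after vancomycin and 0 to 0.520 CPM after PBS, with overlap in both genes. Igha, the constant chain of IgA, had 208, 572, 195 and 610 CPM after vancomycin, against 306, 508, 388 and 1766 CPM after PBS, with overlap (-0.91 ± 0.48, and -0.016 without PBS replicate 4). Muc2, the main mucin, did not differ beyond its spread (3694 ± 799 CPM after vancomycin and 3704 ± 1231 CPM after PBS).

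Sodium absorption genes gave large but variable differences. Scnn1g, the gamma subunit of ENaC, had 20.4, 8.93, 29.7 and 12.2 CPM in the vancomycin libraries, against 0.176, 0.866, 4.56 and 4.17 CPM in the PBS libraries. All 4 vancomycin values lay above the PBS values (2.86 ± 1.04, edgeR adjusted p = 0.488). Scnn1b, the beta subunit, had 50.3, 20.5, 59.7 and 22.003 CPM after vancomycin, against 5.10, 4.68, 19.2 and 15.2 CPM after PBS, again without overlap (1.78 ± 0.61, edgeR adjusted p = 0.442). Scnn1a, the alpha subunit, was on the other side (-0.32 ± 0.20), with overlap. Hsd11b2, which inactivates corticosterone and so keeps the mineralocorticoid receptor open to aldosterone, averaged 492 ± 184 CPM after vancomycin and 228 ± 93.4 CPM after PBS with overlap through PBS replicate 3 (1.11 ± 0.38). Tsc22d3, the corticosteroid target GILZ, was at 0.40. Of the 15 pathway genes 5 were higher at an unadjusted p under 0.05 (2.99% of all genes), Scnn1b, Scnn1g, Hsd11b2 and Tsc22d3 among them, and 0 were lower. The list's median was 0.07, and it was -0.041 without PBS replicate 2 and 0.18 without PBS replicate 4.

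Vancomycin replicates 1 and 3 had the highest values of Scnn1b, Scnn1g and Hsd11b2. The same held for 3 other epithelial genes outside the sodium pathway. Slc7a9, the light subunit of the cystine and dibasic amino acid transporter, had 27.8, 13.3, 35.5 and 2.72 CPM after vancomycin, against 1.495, 3.03, 2.72 and 3.05 CPM after PBS, with replicate 4 inside the PBS range (2.94 ± 0.76, edgeR adjusted p = 0.265, DESeq2 adjusted p = 0.0231). Best2, an anion channel of colonic goblet cells (1.35 ± 0.48), and Cyp27a1, the mitochondrial sterol 27-hydroxylase (1.03 ± 0.34), followed that order. Rep15, a goblet cell Rab15 effector, averaged 290 ± 31.6 CPM after vancomycin and 195 ± 57.2 CPM after PBS without overlap (0.57 ± 0.20, edgeR adjusted p = 0.442). Of 43 tested colonocyte genes, 3 were higher and 4 lower at an unadjusted p under 0.05 (2.99% and 4.35% of all genes), 32 were negative, and the median was -0.23. Among them Krt18, a simple-epithelium keratin, lay lower in all 4 vancomycin libraries (275 ± 30.8 CPM, against 409 ± 47.5 CPM after PBS, -0.57 ± 0.20). Guca2b, which encodes uroguanylin, was at 0.46 ± 0.18.

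The bile acid and vitamin D list held differences in both directions: of 15 tested genes, 3 were higher and 4 lower at an unadjusted p under 0.05 (46.7%, against 7.34% of all genes), and in each of those 7 the groups did not overlap (5.12% of all genes). Higher were Slc51b, a subunit of the basolateral bile acid exporter, with 16.3, 11.6, 12.6 and 7.97 CPM in the vancomycin libraries, against 6.33, 7.10, 3.33 and 5.06 CPM in the PBS libraries (1.15 ± 0.35, edgeR adjusted p = 0.351), Cyp27a1, and Nr1h4, the bile acid receptor FXR (0.61 ± 0.23). Lower were Vdr, the vitamin D receptor (252 ± 26.5 CPM after vancomycin and 346 ± 31.4 CPM after PBS, -0.46 ± 0.17), its calcium-handling targets S100g (-1.69 ± 0.49) and Trpv6 (-1.70 ± 0.69), and Sult2b1, a sterol sulfotransferase (-0.72 ± 0.28). The edgeR adjusted p of these genes ran from 0.319 for S100g to 0.557 for Trpv6.

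Of 42 tested genes of a stress list, 2 were higher and 0 lower at an unadjusted p under 0.05, namely Herpud1 and Ddit4. That was 4.76%, against 7.34% of all genes, and the median of the whole list was 0.01. Herpud1, a membrane protein of the endoplasmic reticulum that serves the disposal of misfolded proteins, had 184, 147, 183 and 119 CPM in the vancomycin libraries, against 98.3, 81.3, 93.3 and 89.8 CPM in the PBS libraries. The groups lay apart (0.80 ± 0.16, edgeR adjusted p = 0.125, DESeq2 adjusted p = 0.00643). Ddit4, an inhibitor of mTORC1 that stress and corticosteroids induce, had 200, 135, 177 and 161 CPM after vancomycin, against 83.2, 76.5, 88.1 and 97.3 CPM after PBS, also apart (0.96 ± 0.24, edgeR adjusted p = 0.217, DESeq2 adjusted p = 0.0353). Of 24 glucocorticoid targets and metallothioneins, 6 were higher and 2 lower at an unadjusted p under 0.05 (2.99% and 4.35% of all genes). In 2 of the list, Ddit4 and Tsc22d3, the vancomycin values lay wholly above the PBS values (2.11% of all genes). In 1, Dusp1 (-0.87), they lay wholly below (3.02% of all genes). Fkbp5, a chaperone induced by corticosteroids, had 346, 119, 328 and 159 CPM after vancomycin, against 135, 143, 145 and 132 CPM after PBS: replicates 1 and 3 were high, replicate 2 lay below the PBS range and replicate 4 just above it (0.78 ± 0.36). Mt1, a metallothionein, was at 0.78 ± 0.36.

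The other genes with the smallest p-values and positive differences serve general cell functions. Coq7, an enzyme of ubiquinone synthesis, averaged 36.7 ± 4.13 CPM after vancomycin and 22.97 ± 4.35 CPM after PBS (0.68 ± 0.14, edgeR adjusted p = 0.125). Lrrc26, an auxiliary subunit of the BK potassium channel, averaged 69.7 ± 8.89 CPM after vancomycin and 40.2 ± 5.92 CPM after PBS (0.79 ± 0.17, edgeR adjusted p = 0.125). Rilp, a Rab7 effector of lysosome transport, was at 0.99, Poc1a, a centriole protein, at 0.87, Ocel1 at 0.73, Psmd9, a proteasome assembly factor, at 0.71, Nmnat1, a nuclear enzyme of NAD synthesis, at 0.59, Tor1aip1, of the inner nuclear membrane, at 0.48, and Sumf1, the sulfatase-activating enzyme, at 0.42. Psmd9 was the only one of these 9 whose groups overlapped (2.11% of all genes lay wholly higher). The 9 genes were picked by their p-values in the same libraries, so this is no separate support. Of 68 tested nuclear genes of oxidative phosphorylation, 66 were positive with a median of 0.16. At an unadjusted p under 0.05, 3 were higher (Ndufb8 0.32, Ndufs8 0.29, Cox7a2 0.28), against 2.99% of all genes. The 13 mitochondrially encoded genes had a median of 0.19 and the 80 ribosomal protein genes one of 0.12.

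Pcnx4 and Celf5 had the smallest p-values on the lower side. Celf5, an RNA-binding splicing regulator known mainly from neurons, had 5.16, 3.54, 5.24 and 4.89 CPM in the vancomycin libraries, against 9.06, 10.6, 11.1 and 11.1 CPM in the PBS libraries. No vancomycin value came near the PBS range (-1.15 ± 0.22, edgeR adjusted p = 0.0899, DESeq2 adjusted p = 0.00291). Pcnx4 averaged 7.25 ± 0.333 CPM after vancomycin and 11.5 ± 1.59 CPM after PBS (-0.66 ± 0.12, edgeR adjusted p = 0.0899, DESeq2 adjusted p = 0.00311). Nyap1, a neuronal adaptor of PI3 kinase, had 4.04, 4.24, 4.39 and 4.26 CPM after vancomycin, against 10.3, 16.9, 8.33 and 12.4 CPM after PBS, with no overlap (-1.50 ± 0.33, edgeR adjusted p = 0.125). Of the 33 tested genes of enteric neurons, glia and pacemaker cells, 3 were lower at an unadjusted p under 0.05 (4.35% of all genes), Celf5 and Nyap1 among them. At that level 1 was higher (2.99% of all genes), the glial filament Gfap (13.05 ± 5.61 CPM after vancomycin and 3.09 ± 1.10 CPM after PBS). The list's median was -0.11.

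The other lower genes with the smallest p-values have varied functions. Fzd4, a receptor for Wnt and norrin, averaged 12.9 ± 1.44 CPM after vancomycin and 19.9 ± 2.98 CPM after PBS (-0.62 ± 0.14, edgeR adjusted p = 0.125). Axin2, a feedback target of Wnt, averaged 18.5 ± 1.45 CPM after vancomycin and 27.4 ± 4.86 CPM after PBS (-0.56 ± 0.15, edgeR adjusted p = 0.283). It was 1 of 19 crypt and Wnt target genes at an unadjusted p under 0.05, and their median was -0.13 (4.35% of all genes were lower). Galnt17 (-1.60 ± 0.34) and Galnt6 (-0.49 ± 0.12) encode enzymes of the O-glycan transferase family, Pla2g15 (-0.96 ± 0.20) a lysosomal phospholipase and Mfsd12 (-0.54 ± 0.13) a lysosomal cysteine transporter. Zmym6 (-0.89), Sap130 of the Sin3 corepressor (-0.84), Gspt2, a translation release factor (-0.82), Septin9 (-0.51) and Ccdc6 (-0.41) filled the rest of the lower side. In all 11 genes named so far in this paragraph the groups did not overlap (3.02% of all genes lay wholly lower). DESeq2 called each of them but Axin2. These genes were picked by their p-values in the same libraries, so neither statement is separate support. Gm14295, named after its values were seen and of unknown function here, had 0.299, 0.462, 0.423 and 0.181 CPM after vancomycin, against 11.3, 5.80, 5.61 and 10.8 CPM after PBS (-4.57 ± 1.34, edgeR adjusted p = 0.323, DESeq2 adjusted p = 0.018).

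Histone genes lay mostly on the negative side. Of 34 tested histone genes of 54 in the list, 9 were lower at an unadjusted p under 0.05 (26.5%, against 4.35% of all genes) and 0 were higher, and in 7 the vancomycin values lay wholly below the PBS values (3.02% of all genes); the median was -0.17. H1f3, a linker histone, had 2.32, 3.23, 1.18 and 4.53 CPM in the vancomycin libraries, against 8.27, 7.45, 13.5 and 13.8 CPM in the PBS libraries, with no overlap (-1.93 ± 0.39, edgeR adjusted p = 0.125, DESeq2 adjusted p = 0.00291). The linker histones H1f4 (-1.56 ± 0.39), H1f2 (-0.67 ± 0.22) and H1f0 (-0.44 ± 0.17) were lower without overlap as well, as were the core histones H4c4 (-1.53) and H4c18 (-1.15), and H2bc6 was at -0.96 with overlap. Most histone messages lack a poly(A) tail and many are close copies, so poly(A)-selected libraries hold only part of them. The 41 proliferation and replication genes had 0 at an unadjusted p under 0.05 (7.34% of all genes) and a median of -0.05.

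Immediate early genes, which growth and stress signals switch on within minutes, had 19 negative and 11 positive fold changes among 30 tested. At an unadjusted p under 0.05, 7 were lower (4.35% of all genes) and 1 higher (2.99%), and in 8 the vancomycin values lay wholly below the PBS values (3.02% of all genes). Fos had 74.8, 39.6, 64.8 and 79.0 CPM in the vancomycin libraries, against 187, 197, 133 and 249 CPM in the PBS libraries (-1.57 ± 0.47, edgeR adjusted p = 0.347). Egr1 had 8.01, 10.9, 6.34 and 9.42 CPM after vancomycin, against 18.4, 23.99, 12.3 and 56.7 CPM after PBS, where replicate 4 was the highest (-1.68 ± 0.47, edgeR adjusted p = 0.296, and -1.07 without that library). Neither gene overlapped between the groups. Fosb (-1.82), Dusp1 (-0.87) and Dusp6 (-0.70), phosphatases of the MAP kinases in the last 2 cases, and the transcription factor Klf4 (-0.47) and Btg2 (-0.33) lay lower too. Nr4a2, an orphan nuclear receptor, went the other way through 2 libraries, with 24.02, 1.62, 50.8 and 0.996 CPM after vancomycin, against 2.11, 2.42, 2.63 and 3.29 CPM after PBS (2.88 ± 1.13). The list's median was -0.19, and -0.01 without PBS replicate 4.

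**Figure D3:**
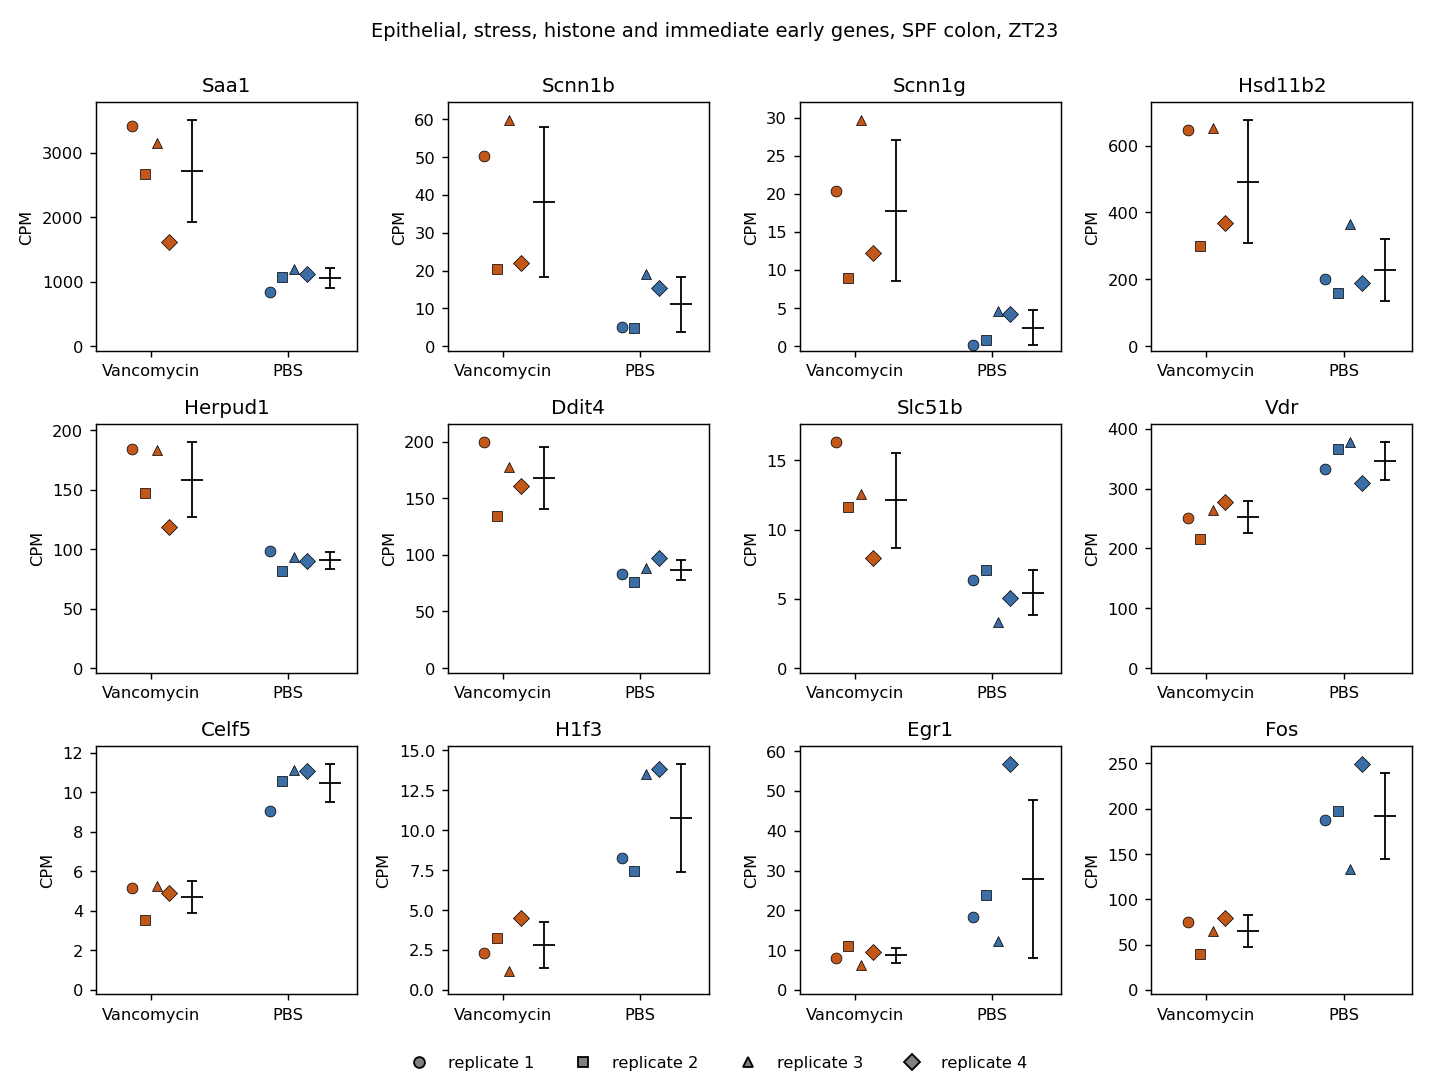
CPM in each library (y axes start at about 0), vancomycin left and PBS right; marker shapes give the replicate number, and bars give mean and SD of 4 libraries. Vancomycin replicates 1 and 3 are highest in Scnn1b, Scnn1g and Hsd11b2, while Celf5, H1f3, Egr1 and Fos lie below the PBS range in all 4 vancomycin libraries.

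Of 22 lipogenesis genes, 6 were lower and 0 higher at an unadjusted p under 0.05 (4.35% and 2.99% of all genes), with a median of -0.15: Thrsp, a lipogenic regulator (-2.02), Acacb, the mitochondrial acetyl-CoA carboxylase (-0.76 ± 0.28), Mid1ip1, an activator of acetyl-CoA carboxylase (-0.53), Lpin1 (-0.42), Srebf1, the regulator SREBP1 (-0.42) and Elovl5 (-0.22). Acacb had 14.1, 12.9, 13.9 and 14.5 CPM in the vancomycin libraries, against 27.3, 23.03, 16.1 and 27.5 CPM in the PBS libraries, without overlap (edgeR adjusted p = 0.504). All 25 adipose and mesothelium markers were negative, 4 of them (Thrsp, Retn, Upk1b, Lipe) at an unadjusted p under 0.05 (4.35% of all genes were lower). Their median was -1.21, and -0.73 without PBS replicate 3. Adipoq, the fat cell hormone adiponectin, had 0.0748, 0, 20.5 and 14.4 CPM after vancomycin, against 0, 39.5, 37.8 and 3.45 CPM after PBS. Thrsp had its highest values (20.9 and 9.65 CPM) in PBS replicates 2 and 3, and its fold change was -1.04 without PBS replicate 2. The adipose and mesothelium score overlapped between the groups (vancomycin libraries 1.60 to 3.30, PBS libraries 1.55 to 4.55, as mean log2 CPM), and its part in the lipid values was not tested.

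Of 20 clock genes, 1 had an unadjusted p under 0.05 (7.34% of all genes), and in another the groups did not overlap (5.12% of all genes). The first was Npas2. Npas2, a partner of BMAL1, had 13.5, 7.39, 15.04 and 19.1 CPM in the vancomycin libraries, against 23.1, 31.7, 26.8 and 17.8 CPM in the PBS libraries (-0.85 ± 0.29, edgeR adjusted p = 0.427). The groups overlapped through replicate 4 of each. Arntl, which encodes BMAL1, averaged 22.2 ± 8.13 CPM after vancomycin and 29.7 ± 3.39 CPM after PBS, and Cry1, a repressor, averaged 44.4 ± 19.7 CPM after vancomycin and 75.2 ± 12.5 CPM after PBS. The vancomycin values of Cry1 lay wholly below the PBS values, with 16.1 CPM in replicate 3 (-0.76 ± 0.75). Other activators and outputs lay between -0.27 and 0.23 (Clock -0.04, Rora -0.16, Rorb -0.25, Dbp 0.01, Hlf -0.27, Tef 0.23, Nfil3 -0.11). The other repressors lay between -0.31 and 0.17 (Cry2 -0.31, Per1 0.07, Per2 0.02, Per3 -0.07, Nr1d1 0.17, Nr1d2 0.15, Bhlhe40 0.05, Bhlhe41 0.02, Ciart -0.03). The medians were -0.13 for activators and outputs and 0.02 for repressors.

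Of 7 tested gasdermin genes, pore-forming effectors of cell death, 6 were negative with a median of -0.54. Gsdmc2, Gsdmc3 and Gsdmc4 were at -0.78, -0.57 and -0.70, all with overlap, and they are close copies of each other.

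**Figure D4:**
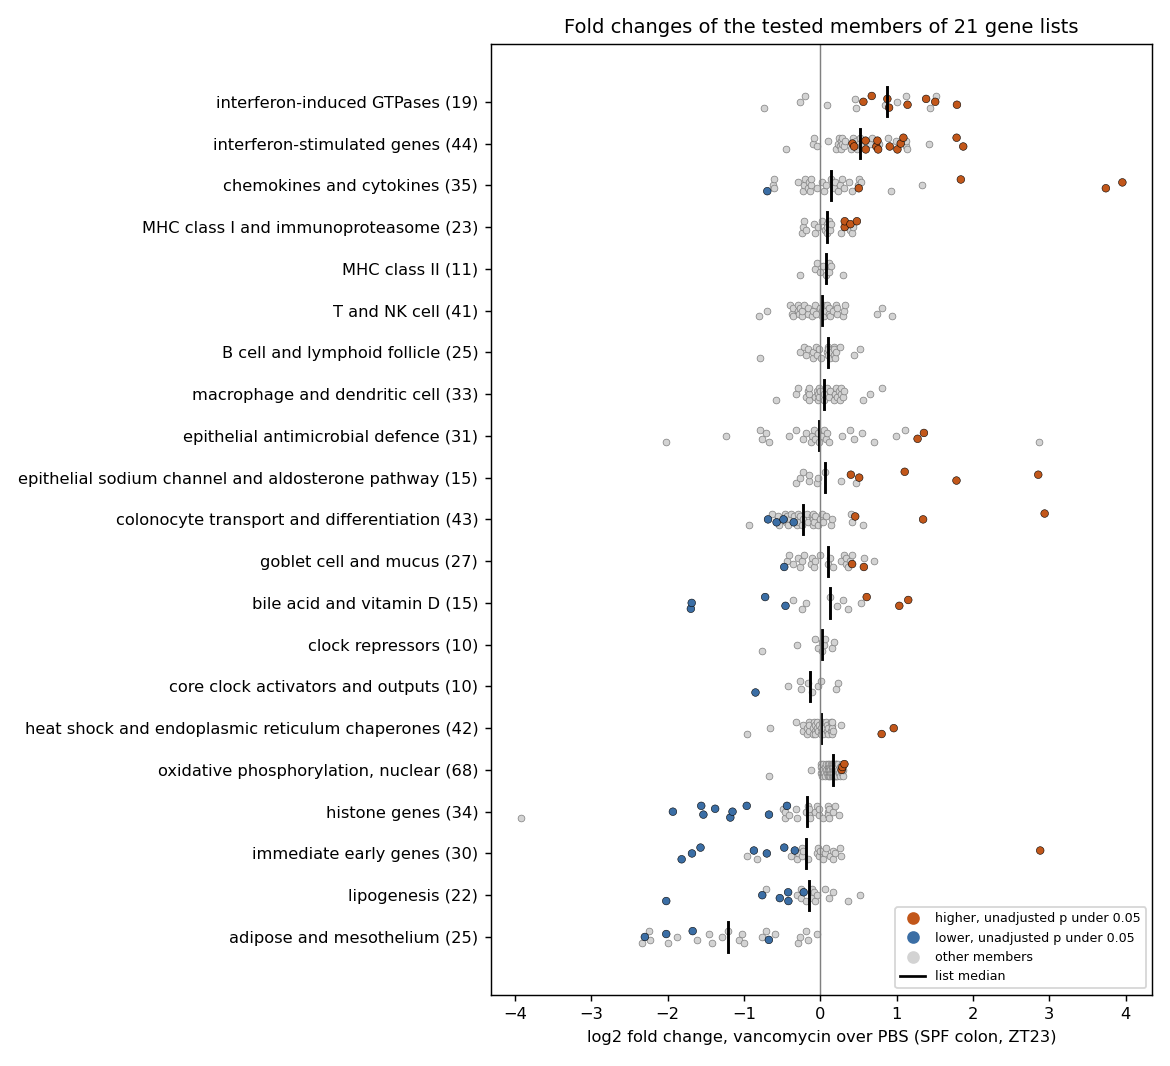
Log2 fold change, vancomycin over PBS (x axis), of every tested member of the gene lists described in the text (y axis, number of members in parentheses); black bars are list medians, and coloured points have an unadjusted p under 0.05. Interferon-induced GTPases (median 0.88) and interferon-stimulated genes (0.51) lie to the right, and adipose and mesothelium markers (-1.21) lie wholly to the left.

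The difference at ZT23 was compared with that at the other 3 times in SPF colon. As a test of the difference itself, the ZT23 effect minus the mean effect at ZT5, ZT11 and ZT17 had 0 of 16938 genes at an edgeR adjusted p under 0.05 (0%) and 731 at an unadjusted p under 0.05 (4.32%); DESeq2 called 3. Trim5 had a fold change of -0.06 at ZT5, -0.30 at ZT11, 0.77 at ZT17 and 2.53 at ZT23, a difference of 2.39 (edgeR adjusted p = 0.426). Galnt17 had 0.19, -0.09, -0.03 and -1.60 in the same order (difference -1.62, edgeR adjusted p = 0.979). Cxcl9 was at 0.17, 3.18, 2.56 and 3.74, Saa1 at 0.84, 1.68, 0.63 and 1.36, and Scnn1b at 2.46, 2.43, -0.50 and 1.78. The medians of the interferon-stimulated genes were -0.05, 1.07, 0.32 and 0.51, and those of the T and NK markers were 1.35, 1.64, 0.43 and 0.02, in the same order. Celf5 was negative at all 4 times (-0.96, -0.69, -0.26 and -1.15). Fos was at -0.77, 0.43, -1.93 and -1.57, Herpud1 at 0.75, -0.05, -0.08 and 0.80, and H1f3 at -1.23, 0.35, -0.97 and -1.93.

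The germ-free libraries at ZT23 were not matched for Y-linked transcripts. Ddx3y, Eif2s3y and Kdm5d were each under 10 CPM in 3 of the 4 GF vancomycin libraries (replicates 1 to 3) and in 1 of the 4 GF PBS libraries (replicate 4), but in 0 of the 32 SPF libraries. Ddx3y, for one, had 0.0868, 0.223, 0 and 75.3 CPM in the GF vancomycin libraries, against 72.1, 75.1, 76 and 0.691 CPM in the GF PBS libraries. Sex is not given in the labels, and without a term for it a sex difference and the drug's effect cannot be told apart in GF colon. A term for libraries without these transcripts was therefore also fitted, chosen after seeing the data.

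In germ-free colon at ZT23 several named genes had a fold change of the opposite sign. Others kept their sign, among them Coq7 (0.68 in SPF and 0.17 ± 0.13 in GF colon) and H1f3 (-1.93 in SPF and -0.31 ± 0.35 in GF). The SPF difference minus the GF difference had 0 of 16604 genes at an edgeR adjusted p under 0.05 (0%) and 2210 at an unadjusted p under 0.05 (13.3%), while DESeq2 called 24. Herpud1 had the smallest p-value, with 0.80 ± 0.16 in SPF colon and -0.54 ± 0.20 in GF colon (difference 1.33, edgeR adjusted p = 0.0539), followed by Trim5, with 2.53 ± 0.45 in SPF colon and -2.12 ± 0.76 in GF colon (difference 4.66, edgeR adjusted p = 0.0545). Cxcl9 was at 3.74 in SPF and -0.60 ± 0.92 in GF colon, Saa1 at 1.36 in SPF and -0.37 ± 0.36 in GF. Scnn1g was at 2.86 in SPF and -0.81 ± 0.71 in GF, Fos at -1.57 in SPF and 0.72 ± 0.39 in GF. Nyap1 was at -1.50 in SPF and 1.04 ± 0.44 in GF. The edgeR adjusted p of the difference was 0.236, 0.236, 0.273, 0.236 and 0.128 in that order. With the term, 1 gene was called, Trim5 (difference 4.99, edgeR adjusted p = 0.0391), Herpud1 was at 1.28 (0.07995), and the adjusted p of Cxcl9, Saa1, Scnn1g, Fos and Nyap1 lay between 0.5295 and 0.5505. The GF values of Cxcl9, Saa1, Scnn1g, Fos and Nyap1 with the term were -0.13, -0.21, -0.37, 0.69 and 0.79. Slc51b was at 1.15 in SPF and 1.14 in GF colon, and Gfap at 2.08 in SPF and 1.93 in GF colon. The interferon-stimulated genes had medians of 0.51 in SPF and -0.17 in GF colon, and the GTPases 0.88 in SPF and -0.41 in GF. The medians of B cell and follicle genes were 0.10 in SPF and -3.91 in GF colon, those of T and NK genes 0.02 in SPF and -2.54 in GF, and those of adipose and mesothelium genes -1.21 in SPF and 1.76 in GF. Proximal colon genes had medians of -0.08 in SPF and 1.58 in GF. With the term, the GF medians were -0.09 for interferon-stimulated genes, -0.32 for GTPases, -3.2 for B cell and follicle genes and -2.65 for T and NK genes. They were 1.04 for adipose and mesothelium genes and 1.07 for proximal colon genes. The part of these cell types and of colon position in the comparison was not tested.

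**Figure D5:**
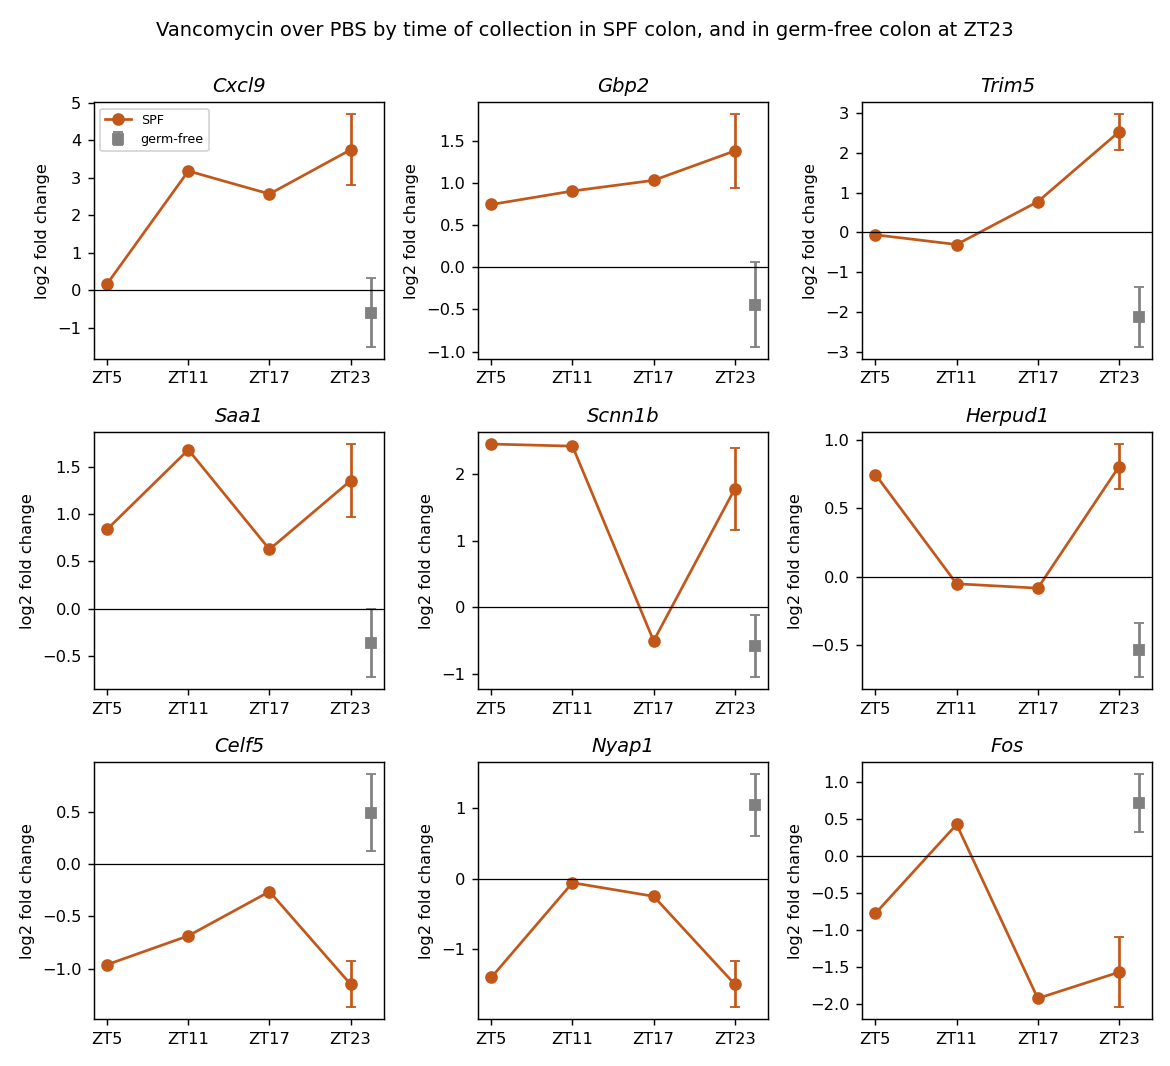
Log2 fold change, vancomycin over PBS (y axes), by time of collection (x axes) in SPF colon (orange line) and in germ-free colon at ZT23 (grey squares); bars at ZT23 are standard errors. Trim5 stands at 2.53 only at ZT23 among the 4 SPF times, Celf5 is negative at all 4, and in each of the 9 panels the germ-free value has the sign opposite to the SPF value at ZT23, with some of its standard errors reaching 0. The 9 genes are a selection, and other named genes, such as Coq7 and H1f3, had the same sign in both.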

How the data were processed

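The authors deposited 1 table of estimated counts per gene for SPF colon and 1 for germ-free colon, 32 libraries each; 75-cycle single-end reads are stated in the labels' protocols, and Trim Galore 0.6.2, cutadapt 3.5, Salmon and build GRCm39 in the submitters' processing notes. The values were treated as unscaled estimated counts, although their deposited name contains a word for normalized values. Library totals differ, so no common total had been set. Only 4.24 to 12.2% of values under 20 lie within 0.01 of a whole number. Whether another scaling had been applied before deposit was not tested. The values were rounded to whole numbers. A gene was tested if 4 or more of the 32 SPF libraries reached 10 rounded counts (16938 of 35534). edgeR 4.0.16 in R 4.3.3 was fitted with TMM scaling to all 32 SPF libraries with 8 group means, and 2-sided p-values were adjusted by Benjamini-Hochberg over all tested genes, at 0.05. The SE is the fold change divided by the root of its F statistic. The comparison with germ-free colon took 64 libraries, 16 group means and 16604 genes. CPM are rounded counts divided by the library total times TMM factor and scaled to the usual common total; a list score is the mean log2 CPM of tested members with a prior count of 2. Interval widths follow from 4 libraries a group and the library totals. The procedure was first tested on simulated data.

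Named genes are the 14 smallest p-values in each direction with a mean of at least 5 CPM in a group and a plain symbol, up to 4 per list by p, the 6 largest changes among DESeq2 calls, and the core clock genes, Saa1, Saa2, Cxcl9, Reg3g, Reg3b, Igha, Muc2, Scnn1b, Scnn1g and Hsd11b2; of 221 genes so found, those that bear on a result are given, some are not reported here, and others are named where they illustrate a list. Members and lists were chosen with earlier results of these data known. Of 47 lists, those not described in the text are given in the closing section. Alternatives were other size factors, other filters on low counts, limma-voom 3.58.1, DESeq2 1.42.0, the 8 libraries alone, replicate blocks, tissue scores as covariates, a term for libraries without Y-linked transcripts (added after seeing the data) and leaving out each library.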

Additional observations from a re-analysis of the deposited data

Results flagged for a closer look

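A library was picked out where, within a group of 4, its distance to the nearest of the other 3 exceeded Dixon's 95% critical value as a share of the group's range. Of 360 groups of values checked (133 genes and 47 list scores in both treatments), 22 met this, and chance alone gives about 1 in 20 groups. By edgeR's quasi-likelihood test, no gene passed for a difference in the vancomycin effect between ZT23 and the other times or between SPF and GF colon.

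PBS replicate 2 had 168.9 CPM of Alb, against 0.9631 to 2.368 CPM in the other PBS libraries, and a liver and pancreas score of 5.492 log2 CPM, against 2.253 to 2.408. Vancomycin replicate 3 had a T and NK cell score of 0.7985 log2 CPM, against 2.122 to 2.286 in the other vancomycin libraries. PBS replicate 4, where lymphoid markers were highest, had 1766 CPM of Igha, against 305.7 to 508 in the other PBS libraries, 3.21 CPM of Cxcl10, against 0.08796 to 0.5262, and 200.9 CPM of Btg2, against 133.1 to 139.2; its Gfap was low, at 1.445 CPM against 3.55 to 3.771.

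Vancomycin replicate 4 stood apart most often. It had 38.03 CPM of Iigp1, against 6.676 to 10.78 in the other vancomycin libraries, 5.614 CPM of Gbp6, against 2.619 to 2.994, 241.9 CPM of Gsdmc2, against 137.2 to 154.9, 254.2 CPM of H1f2, against 187.7 to 197.4, a low 167.9 CPM of Ndufb8, against 215.8 to 225.1, and a colon identity score of 9.241 log2 CPM, against 8.817 to 8.852. Gbp2 was low in PBS replicate 1, at 26.21 CPM against 39.83 to 40.13 in the other PBS libraries.

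The remaining cases were single genes. Among the vancomycin libraries, replicate 3 had 209.5 CPM of Per2 (others 97.7 to 105.9) and 182.9 CPM of Cox7a2 (147 to 151.7), replicate 2 had 15.87 CPM of Rora (7.859 to 8.906), 5.392 CPM of Bhlhe41 (6.361 to 6.519) and 11.09 CPM of Mx1 (7.436 to 7.878), and replicate 1 had 60.39 CPM of Guca2b (40.98 to 43.46). Among the PBS libraries, replicate 3 had 101.6 CPM of Clock (81.54 to 84.43) and replicate 2 had 0.5195 CPM of Reg3b (0 to 0.08796).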

How the results depend on the processing

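The count of genes called in SPF colon at ZT23 was 0 by edgeR with TMM, with DESeq2's size factors, without a filter on low counts, with a filter of 50 counts, with a smooth muscle or colon position score as a covariate, and by limma-voom. It was 4 with library totals alone, 7 with the B cell and follicle score as a covariate, 42 by DESeq2 and 1 (Gm14295) in a fit of the 8 libraries alone. The difference from the other 3 times had 3 calls by DESeq2 and 1 each with the smooth muscle and colon position scores. The difference from GF colon had 2 calls with library totals alone, with the filter of 50 counts and by limma-voom, 24 by DESeq2, and 1 (Trim5) with a term for libraries without Y-linked transcripts, an alternative chosen after seeing the data; 1469 genes then had an unadjusted p under 0.05, against 2210 without the term. Leaving out each library in turn gave 0 to 1 calls for the ZT23 effect, 0 to 1 for the difference from other times and 0 to 3 for that from GF colon. Trim5 was the ZT23 call without vancomycin replicate 1 and without vancomycin replicate 4; without vancomycin replicate 4 the other 2 comparisons had 1 and 3 calls, and the difference from GF colon had 2 without PBS replicate 1 and 1 without PBS replicate 4. In these fits the genes at an unadjusted p under 0.05 numbered 979 to 1380, 561 to 905 and 1784 to 2542. The cause of these shifts was not tested.

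Same-numbered vancomycin and PBS libraries do not pair by the labels: their deviations from the group means correlated at -0.015 to 0.236, and 2 of 4 correlated best with their own number. With a replicate block the count of calls was 0 in all 3 comparisons and 0 in the 8 libraries alone, with 1133 genes at an unadjusted p under 0.05 for the ZT23 effect.

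Of 133 named genes, 121 kept the sign of their log2 fold change in all alternatives that tested them (17 to 20 a gene), and 12 did not. Alb ran from -4.59 to 0.63 over the fits that leave out a library, positive without PBS replicate 2. In those fits Bhlhe40 ran from -0.081 to 0.19, Bhlhe41 from -0.11 to 0.20, Ciart from -0.28 to 0.20, Clock from -0.088 to 0.043, Dbp from -0.25 to 0.21, Hlf from -0.81 to 0.15, Muc2 from -0.15 to 0.23, Nr1d1 from -0.010 to 0.39, Per1 from -0.042 to 0.18, Per2 from -0.32 to 0.29 and Rsad2 from -0.32 to 0.00077. Ciart was 0.082 by limma-voom, 0.063 with a replicate block and 0.074 with that block in the 8 libraries alone. Dbp was -0.012 by limma-voom and -0.00791 with the block. Muc2 was 0.027 by limma-voom, 0.010 in the 8 libraries alone, 0.025 with the block, 0.038 with the block there and 0.017 with the B cell and follicle covariate. Bhlhe41 was -0.000136 with that covariate and -0.11 with the colon position score, and Per2 was -0.050 with the colon position score and -0.00493 with the smooth muscle score.

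With 4 libraries a group, a difference that misses the threshold is not shown to be absent, and genes at a few counts have fold changes that 1 library can set.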

Other observations

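Supporting cell types not described above gave few differences, and none of their genes had an edgeR adjusted p under 0.05. At an unadjusted p under 0.05, 2.99% of all genes were higher and 4.35% lower. Of 35 fibroblast and matrix genes, 29 were negative and 2 were lower at an unadjusted p under 0.05 (median log2 fold change -0.16), and of 21 endothelial genes 18 were negative and 1 was lower (median -0.14). Smooth muscle genes (28 tested, 1 lower, median 0.08), enteroendocrine and tuft cell genes (20 tested, 1 lower, median 0.08) and plasma cell genes (19 tested, 1 lower, median -0.14, and 0.28 without PBS replicate 4) held no gene that was higher at that level. The 27 goblet cell genes had 2 higher and 1 lower, with a median of 0.10. The 9 neutrophil and mast cell genes had 0 in either direction and a median of -0.23, and the 5 erythroid genes had 1 lower and a median of -0.68.

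Of 63 xenobiotic metabolism genes 4 were higher and 4 lower at an unadjusted p under 0.05 (median -0.07), of 53 pattern recognition and NF-kB genes 3 were higher and 3 lower (median 0.05), and of 36 fatty acid oxidation genes 2 were higher and 2 lower (median -0.06). Of 32 cholesterol synthesis genes 1 was lower (median -0.08), and of 27 claudin and tight junction genes 2 were lower (median -0.09). Over all genes, 2.99% were higher and 4.35% lower at that level.

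Lists that report on where and how cleanly tissue was taken gave the following medians. The 10 distal colon Hox genes had a median of -0.26, with 9 negative, the 11 proximal colon genes one of -0.08, and the 12 colon identity genes one of -0.25. The 6 small intestine genes had a median of 0.53, the 5 skeletal muscle genes one of -0.19, and the 5 liver and pancreas genes one of -2.08, which was 0.01 without PBS replicate 2.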
